A study of Drosophila melanogaster with 2 samples.

Results

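The growth genes of the insulin, TOR and Myc pathways were examined in a map of gem binding in the fly embryo. The set of 9 genes was given by name as Myc, Mnt, InR, chico, foxo, Thor, Tor, S6k and Lk6, out of 18164 annotated genes. A peak belonged to a gene when its summit lay inside the gene or within 10 kb of either end, and 74 of the 11045 reproducible peaks of the series did so (0.670%). The chromatin came from 1 group of whole Drosophila melanogaster embryos, male and female together and aged 0 to 24 h. They came from 1 transgenic line making gem with GFP at its C-terminus, gem being a transcription factor of the CP2 branch of the Grainyhead family, and the promoter of the transgene is not given in the labels. Precipitation used an antibody against GFP, and the 2 libraries are biological replicates 1 and 4. The authors called peaks against a control alignment, per the deposited listing, but no control values, second condition or embryos without the tag were analysed here, so binding is described in this group alone. All cell types of the embryo were mixed, so a peak cannot be placed in a tissue.

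In flies, insulin-like peptides activate the insulin receptor InR, whose adaptor chico passes the signal to phosphoinositide 3-kinase and Akt. Akt keeps the transcription factor foxo out of the nucleus, and signalling through the same route and through amino acids activates the kinase Tor. Tor raises protein synthesis by activating S6k and by inhibiting Thor, the 4E-BP that holds back the cap-binding protein eIF4E. Myc drives ribosome production and growth together with Max, and Mnt pairs with Max to repress. The network couples growth to nutrition through development, and InR and Thor are themselves known targets of foxo.

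The summits in the set lay mostly in AT-rich sequence. The summit of the strongest peak, with 50 bases on either side, is shown for each gene with a reproducible peak, to let that composition be seen. The sequences are on the plus strand of dm6 (release 6 sequence from RefSeq), 5′ to 3′, and capitals mark the longest run of A and T alone in each window. Where runs tied for length, as at InR, foxo and S6k, the first is marked.
Myc, intron, chrX:3381875-3381975: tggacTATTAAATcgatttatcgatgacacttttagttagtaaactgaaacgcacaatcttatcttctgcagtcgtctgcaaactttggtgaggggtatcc
Mnt, intron, chrX:3678019-3678119: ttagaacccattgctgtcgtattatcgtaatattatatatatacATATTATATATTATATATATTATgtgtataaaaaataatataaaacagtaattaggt
InR, intron, chr3R:21590788-21590888: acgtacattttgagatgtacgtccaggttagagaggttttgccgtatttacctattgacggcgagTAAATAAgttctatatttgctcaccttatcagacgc
foxo, upstream, chr3R:14053546-14053646: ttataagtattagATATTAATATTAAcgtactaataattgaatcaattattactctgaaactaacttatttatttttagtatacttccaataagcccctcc
Thor, upstream, chr2L:3476063-3476163: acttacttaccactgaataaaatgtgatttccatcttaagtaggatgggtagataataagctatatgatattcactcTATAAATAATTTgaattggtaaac
Tor, upstream, chr2L:13004205-13004305: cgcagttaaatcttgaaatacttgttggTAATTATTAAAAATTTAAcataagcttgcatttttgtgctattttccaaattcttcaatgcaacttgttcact
S6k, intron, chr3L:5809385-5809485: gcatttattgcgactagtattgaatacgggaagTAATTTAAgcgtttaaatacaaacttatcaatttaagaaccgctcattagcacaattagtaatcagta
Lk6, intron, chr3R:11761005-11761105: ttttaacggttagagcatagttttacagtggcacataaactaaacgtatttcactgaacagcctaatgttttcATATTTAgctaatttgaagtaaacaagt

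GC content was 17.8% in the Mnt window, the lowest of these 8, and 40.6% in the InR window, the highest. The longest A and T run was 23 bases at Mnt, 18 at Tor, 13 at foxo and 12 at Thor, and 7 or 8 at Myc, InR, S6k and Lk6.

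Peaks were spread very unevenly over the genes. The reproducible list used for the counts is the one to which the authors applied a threshold on the IDR (irreproducible discovery rate), and it holds the 11045 strongest peaks of the pooled list, including some with no match in 1 replicate. At least 1 IDR peak was found at 8 of the 9 genes, where 74.6% of the 13945 protein-coding genes had one by the same rule. Mnt had 19 IDR peaks, InR 15, foxo 13 and Myc 12, and these 4 genes together held 59 of the 74 (79.7%). Thor and Lk6 had 5 each, S6k had 4, Tor had 1 and chico had 0. Each summit counts as a peak, for these genes and for all others, so the numbers are not of separate intervals. Summits of 837 and 496 at Mnt share an interval, as do those of 1042 and 255 at InR. The median protein-coding gene had 2, and 2.44% of protein-coding genes had 10 or more.

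Long genes have more room for peaks, and the 4 genes with most peaks were also the longest, from 18539 bp (Myc) to 49074 bp (InR). Per 10 kb of gene and surroundings, Mnt had 3.81 peaks, Myc 3.11, foxo 2.55, Thor 2.36, InR 2.17, Lk6 1.49, S6k 1.20 and Tor 0.348. The density at Mnt was above that of 99.1% of protein-coding genes, at Myc above 96.9%, at foxo above 93.5% and at Thor, whose gene spans 1179 bp, above 91.8%. The density at Tor was above that of only 27.9%. Over the merged windows of 349.893 kb the density was 2.11 peaks per 10 kb, against 0.825 over the 6 chromosome arms, 2.56-fold higher. The median protein-coding gene had 0.763 per 10 kb. Counting only the strongest peaks of 1 replicate, as many as the IDR list holds, gave 71 peaks (2.46-fold) in replicate 1 and 73 (2.53-fold) in replicate 4.

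**Figure D1:**
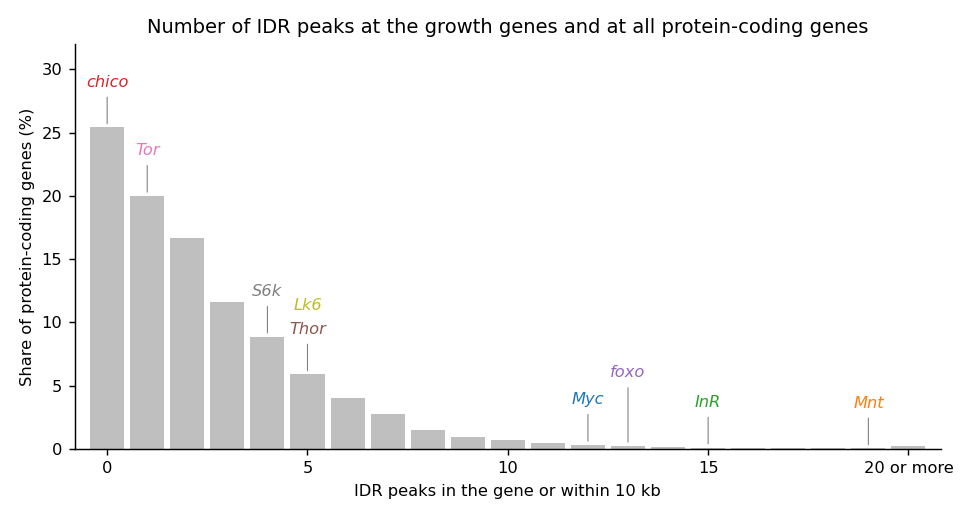
Number of IDR peaks in each gene or within 10 kb. Grey bars give the share of all 13945 protein-coding genes (%) with each number of peaks, the last bar holding genes with 20 or more, and names mark the growth genes. Mnt (19), InR (15), foxo (13) and Myc (12) lie in the thin right tail, while chico (0) and Tor (1) lie in the 2 tallest bars.

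**Figure D2:**
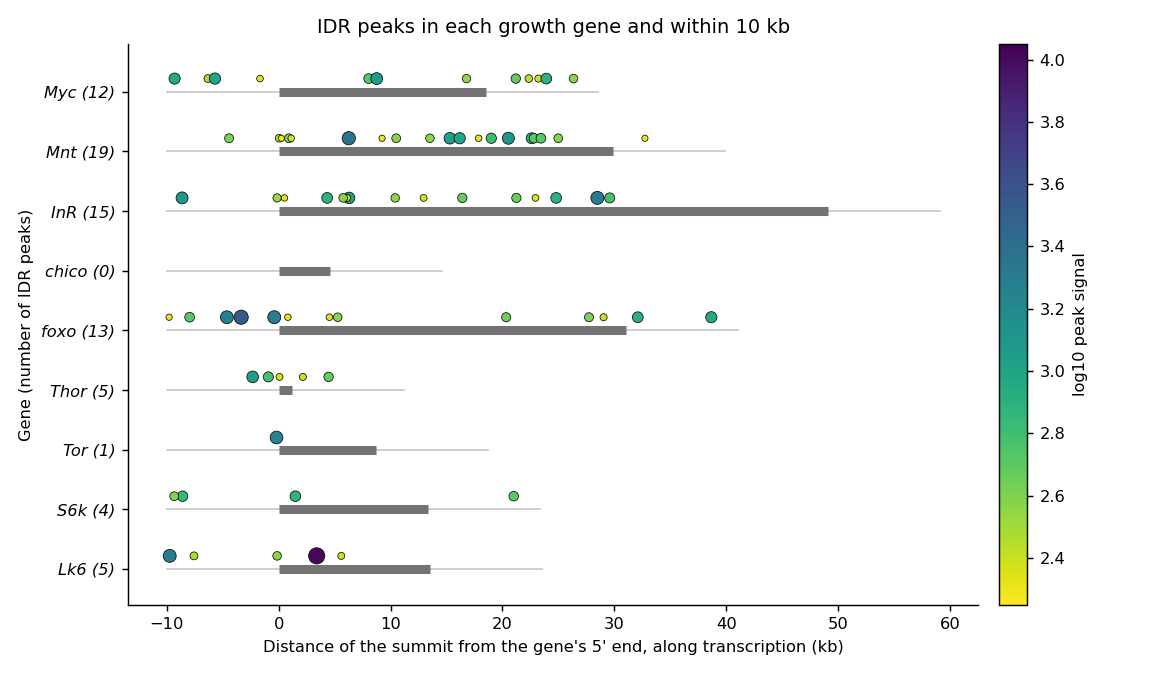
Positions of the 74 IDR peaks along each gene. The horizontal axis is the distance of the summit from the gene's 5' end in the direction of transcription (kb), thick bars are genes, thin lines the 10 kb on either side, and the size and colour of each circle give log10 peak signal. Peaks fill the body of Mnt and the 5' part of InR, lie on both sides of foxo and Myc, and include 1 very strong site in Lk6.

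Most summits lay in introns, as they did in the whole list. Summits of 50 of the 74 lay in introns of any gene (67.6%, exact 95% interval 55.7 to 78.0), against 53.8% of all IDR peaks (52.8 to 54.7). In intergenic sequence lay 16 (21.6%, 12.9 to 32.7), against 38.3% of all IDR peaks (37.4 to 39.3). The windows were drawn around genes, which bears on both shares, and the differences were not tested. Of the rest, 4 lay in 5' UTRs (5.41%, against 3.89% of all IDR peaks), 2 in 3' UTRs (2.70%, against 1.51%), 2 in non-coding exons (2.70%, against 2.23%) and 0 in coding exons (against 0.263%). Inside the growth genes themselves lay 43 summits, 38 of them in an intron. The median distance to the gene's own nearest transcription start site (TSS) was 5371 bp. Summits within 500 bp of a TSS of any gene made up 17 of 74 (23.0%, exact 95% interval 14.0 to 34.2), against 30.4% of all IDR peaks (29.6 to 31.3). The interval, which covers counting error only, includes the share of the whole list. For 42 of the 74 (56.8%), the nearest TSS was that of the growth gene itself, so the remaining 32 lay closer to the start of another gene. The 42 include 9 at Myc that were equally near the start of lncRNA:CR44999, which coincides with that of Myc.

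A promoter peak, meaning an IDR summit within 500 bp of the gene's own TSS, was present at 6 of the 9 genes: Mnt, InR, foxo, Thor, Tor and Lk6. By the same rule 24.6% of protein-coding genes had one. Mnt, with 3 annotated start sites, had 4 such peaks, InR with 4 start sites had 3, foxo with 2 had 2, and the other 3 genes had 1 each. Myc, S6k and chico, with 1 annotated start site each, had none. A gene with several start sites has more chances of such a peak, and no test was made of the difference from the background.

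Signal, the value the authors gave each peak, had a median close to that of the whole list, and its shares of strong peaks were close to those of the list too. The scale of the signal is not stated, so peaks are ranked only within a list. The ratio between lists given with the replicates below is a description and rests on that unstated scale. The median over the 74 peaks was 449, against 432 over all IDR peaks, and 38 of the 74 lay in the stronger part of the list when it was divided at its middle. The small difference of the medians turned round in a narrower window, with a ratio of 0.954 within 5000 bp and 0.924 within 1000 bp of the genes. Signals ran from 196 to 10316, and 8 peaks (10.8%) were in the top 10% of the list, above 1685. Of those 8, 3 belonged to foxo, 2 to Lk6 and 1 each to Mnt, InR and Tor.

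InR, the insulin receptor (3R, 21570248 to 21619321, minus strand, 4 transcripts), carried its strongest peak in an intron, 647 bp upstream of the start site nearest the gene's 3' end. This peak, at 21590599 to 21591009, had a signal of 1998 and rank 821 in the IDR list, with 1543 (rank 735) in replicate 1 and 454 (rank 1191) in replicate 4. It was in the top 10% of the IDR list. A second peak of 605 lay 456 bp downstream of the same start, with 402 in replicate 1 and 197 in replicate 4. At the outer starts, where the gene begins, only weak peaks were found. One of 335 lay 140 bp upstream (221 in replicate 1 and 117 in replicate 4), and one of 210 lay 235 bp downstream in the 5' UTR (168 in replicate 1 and 46.9 in replicate 4). The internal start thus lay between the strongest InR peak and one of 605, and both exceeded either peak at the outer starts in both replicates.

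Between these starts the introns of InR held 10 further peaks. Their signals ran from 224 to 1042, and the strongest lay 6013 bp downstream of an outer start. All 10 were closer to the start of lncRNA:Irar or lncRNA:CR44034, non-coding RNAs annotated within the gene, than to a start of InR. A peak of 779 lay in an exon of lncRNA:Irar, 2394 bp upstream of an internal InR start. Upstream of the gene, 8629 bp from its start, a peak of 1254 (857 in replicate 1 and 402 in replicate 4) lay in an intron of E2f1, a cell cycle transcription factor gene. The 3' part of the gene and the 10 kb beyond it held no IDR peak, and 2 of the 15 summits lay outside the gene.

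chico, the insulin receptor substrate (2L, 10242512 to 10247078, minus strand, 4567 bp), was the gene with no IDR peak. The nearest IDR summit was 11160 bp from the gene, outside the window, with a signal of 399, 340 bp from a start of ova. The weaker lists added little. The pooled list had 1 peak in the window with a signal of 60.2 (rank 23209 of 30000), 10401 bp from the TSS. Replicate 4 had 1 of 22.1 at that place (rank 26134), and replicate 1 had 0. Among protein-coding genes 25.4% likewise had no IDR peak in their window. The lists do not say whether a peak could have been called in this stretch, so they do not show that gem is absent from it.

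foxo, the forkhead transcription factor restrained by Akt (3R, 14056945 to 14087978, plus strand), had a group of strong peaks on its upstream side. The strongest lay 3349 bp upstream of the first TSS at 14053377 to 14053795, with a signal of 3502 (rank 300), 2508 in replicate 1 (rank 301) and 1010 in replicate 4 (rank 284). A second, 390 bp upstream and so a promoter peak, had 1971 (rank 836), with 1291 in replicate 1 and 687 in replicate 4. The peak at 4625 bp upstream had 1848 (rank 933), with 1246 in replicate 1 and 604 in replicate 4. All 3 were in the top 10% of the list, and both replicates placed the first of them above the others.

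The remaining foxo peaks were weaker. The other promoter peak, 212 in the 5' UTR between both starts, ranked 6492 in replicate 4 (116) and 13339 in replicate 1 (97.3), beyond the 11045 strongest there. Of the 13 summits, 5 lay in introns of foxo, with signals from 219 to 440. Downstream of the gene, a peak of 778 lay 476 bp from a start of Npc2b, and one of 904 lay in an intron of CCHa1, a neuropeptide gene. The 3 strongest foxo peaks were therefore all upstream of its first TSS.

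Thor, the fly 4E-BP (2L, 3478434 to 3479612, plus strand), had 5 peaks in a window of 21179 bp. The strongest, 1108 (775 in replicate 1 and 341 in replicate 4), lay 2321 bp upstream of its TSS and 230 bp from a start of lncRNA:CR43928. The next, 609 (414 in replicate 1 and 187 in replicate 4), lay 919 bp upstream in an exon of the same non-coding RNA. The promoter peak, 10 bp from a TSS in the 5' UTR, was weak in comparison, at 236 with 134 in replicate 1 and 104 in replicate 4. The summit window held the letters GTAAACA, the core of forkhead binding sites. Downstream lay a peak of 244 at 2077 bp and one of 480 at 4377 bp, in an intron of CG15414. The last of these had 370 in replicate 1 and no match within 100 bp in replicate 4, whose nearest listed summit was 640 bp away with a signal of 37.2.

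Tor, the TOR kinase (annotated as mTor; 2L, 13004480 to 13013197, plus strand), had a single IDR peak in 28718 bp. It lay at 13004050 to 13004528, 225 bp upstream of the Tor TSS and 148 bp from that of Vha68-1, a subunit gene of the vacuolar proton pump that is the nearer of the pair. Its signal of 1737 (rank 1055) put it in the top 10%. The replicates differed here. Replicate 1 had 1334 (rank 929), while the list of replicate 4 held no peak in the whole window, and its nearest summit was 12471 bp away. This was the strongest of the 5 growth gene peaks with no match in 1 replicate. The lowest signal listed in replicate 4 was 18.2. The cause of the missing entry was not tested, and the Tor result rests on replicate 1 and the pooled list.

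S6k, the ribosomal protein S6 kinase (3L, 5797549 to 5810931, minus strand), had 1 peak inside the gene. It lay in an intron 1496 bp downstream of the TSS with a signal of 747 (rank 3233), 505 in replicate 1 and 242 in replicate 4. Upstream, peaks of 708 and 392 lay 8585 and 9336 bp from the TSS in introns of vn, which encodes a ligand of the EGF receptor. On the other side a peak of 503 lay in a 3' UTR of Bre1, 21010 bp from the S6k start. It had 176 in replicate 4 and no match in replicate 1, where the nearest summit was 6845 bp away. At the S6k start itself the pooled list held a peak of 134, 8 bp from the TSS, ranked 13763 and so below the IDR list. None of the IDR peaks of S6k was in the top 10%.

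Lk6, the kinase that phosphorylates eIF4E (3R, 11750931 to 11764457, minus strand), held the strongest peak of the set by far. At 11760779 to 11761444, in an intron 976 bp upstream of the internal start, it had a signal of 10316 and rank 19 of 11045. It ranked 18 in replicate 1, with 7546, and 19 in replicate 4, with 2793. The next strongest peak of any growth gene, at foxo, had 3502. The Lk6 summit window also held GTAAACA, in lower case near the 3' end of its sequence above. A peak of 1944 (1370 in replicate 1 and 577 in replicate 4) lay just inside the 10 kb margin, 9735 bp upstream in an intron of l(3)neo38 and 622 bp from a start of that gene. The only summit closer to the edge of a window was a foxo peak of 203 at 9789 bp, and the nearest summits outside were 442 at 11119 bp from foxo and the one of 399 beside chico. The promoter peak at the outer start was weak, 367 at 138 bp upstream, with 193 in replicate 1 and 188 in replicate 4. Among protein-coding genes, 99.3% had a lower maximum in their windows.

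By number of peaks and their summed signal together (5 and 13166), the genes most like Lk6 were CG32772, CG4041 and PIG-G. CG32772 and CG4041 had an identical count and sum (5 peaks and 13130), and PIG-G had 5 peaks and 13491. Whether CG32772 and CG4041 hold the same peaks was not examined, so they may not be separate cases. Distances from Lk6 over those quantities, on the log10 scale and from the single IDR list, were 0.00119 for CG32772 and CG4041 and 0.0106 for PIG-G.

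Myc (X, 3373159 to 3391697, plus strand) had 12 peaks and none within 500 bp of its TSS. The closest was a weak one of 220, 1665 bp upstream, and the pooled list held a peak of 67 at 311 bp that fell below the IDR list. The strongest lay 8766 bp downstream of the TSS in an intron, at 3381751 to 3382067, with a signal of 1180 (rank 1822), 875 in replicate 1 and 314 in replicate 4. A peak of 538 lay beside it at 8048 bp. Both lay in sequence shared with lncRNA:CR44999, whose start coincides with that of Myc, so the peaks cannot be assigned to one of them.

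Upstream of Myc, peaks of 948 and 898 lay at 5686 and 9296 bp, the outer one 177 bp from a start of lncRNA:CR46243. Beyond the 3' end, 5 peaks from 244 to 781 lay in introns of CG12535 and the non-coding RNA. All 12 Myc peaks had a match in both replicates, and 10 were among the 11045 strongest of each. None was in the top 10% of the list, so Myc was high in number of sites and not in their signal.

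Mnt, the repressor that competes with Myc for Max (X, 3671801 to 3701672, plus strand), had the most peaks, 19, of which 16 lay in its introns. Neighbouring summits were a median of 1540.5 bp apart. The strongest lay 6268 bp downstream of the first TSS at 3677826 to 3678313, with a signal of 2259 (rank 672), 1679 in replicate 1 and 585 in replicate 4. The next were 1278 at 2970 bp downstream of the innermost start and 1067 at 1135 bp upstream of an internal start. These 3 intronic peaks had matches in both replicates at ranks from 655 to 2862.

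Of the promoter peaks of Mnt, that at an internal start was stronger than those at the other starts. It had 950 at 257 bp upstream, with 691 in replicate 1 and 265 in replicate 4. At the outer start lay a peak of 283 in the 5' UTR at 45 bp (210 in replicate 1) and one of 198 in an intron at 244 bp (140 in replicate 1 and 77.1 in replicate 4). At the innermost start lay one of 211 at 303 bp (164 in replicate 1). The peaks of 283 and 211 had no match within 100 bp in replicate 4, whose nearest listed summits were 137 bp and 108 bp away. The intervals of the peaks of 283 and 198 overlap. The replicate 4 summit nearest the first, of 77.1, was the match given for the second. The first peak of the window, 410 (269 in replicate 1 and 136 in replicate 4), was 247 bp from the start of Ilp7, an insulin-like peptide gene that neighbours Mnt.

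Replicates placed the peaks that matched in both in similar order. Of the 74 peaks, 69 had a summit within 100 bp in the full lists of both replicates, and 59 (79.7%, exact 95% interval 68.8 to 88.2) in the 11045 strongest of both, against 79.6% (78.8 to 80.3) of all IDR peaks. Over the 69 peaks the Spearman coefficient of the replicates' signals was 0.857, a description across peaks that share the same 2 libraries. It leaves out peaks with no match in 1 replicate, and the IDR list was itself thresholded on reproducibility. No coefficient over the whole list is given beside it. The ratio of the IDR value to the sum of both replicates' values had a median of 0.997 over those 69 peaks (range 0.912 to 1.903) and of 0.999 over all IDR peaks with both (0.295 to 2.67), so single peaks departed from the sum. Of the 74, 4 (5.41%) had no match in replicate 4 and 1 (1.35%) none in replicate 1, against 3.99% and 1.79% of the IDR list.

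**Figure D3:**
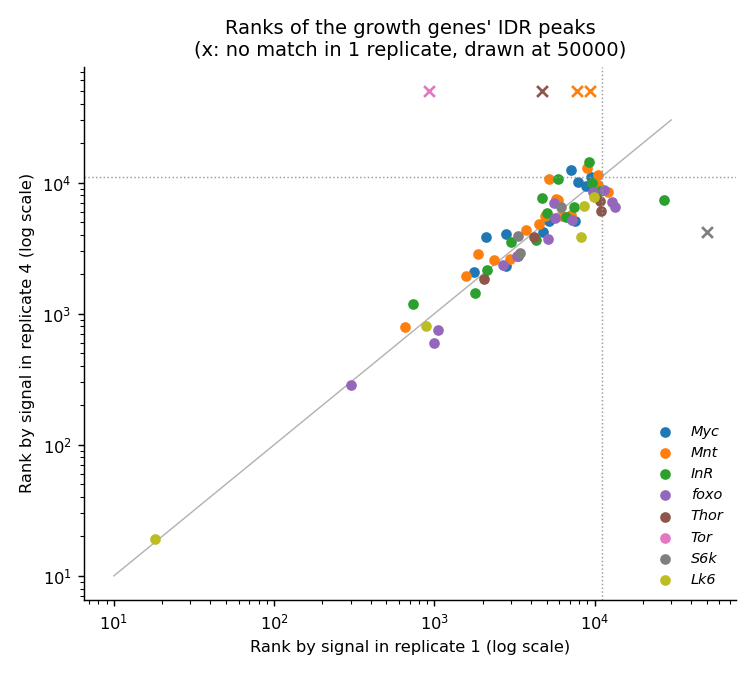
Rank by signal of each growth gene peak in replicate 1 (horizontal, log scale) and replicate 4 (vertical, log scale). Dotted lines mark rank 11045, and crosses along the outer edges mark the 5 peaks with no match in 1 replicate. The Lk6 peak at ranks 18 and 19 stands apart at the lower left, and the Tor peak, rank 929 in replicate 1, has no match in replicate 4.

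With weaker peaks included, InR had the most peaks in place of Mnt, and Tor and chico still had the fewest. In the pooled list of 30000 peaks, which includes the IDR list as its strongest 11045, the windows held 173 peaks. Of these, InR had 48, foxo 34, Mnt 33, Myc 31, Lk6 11, S6k 7, Thor 7, Tor 1 and chico 1. Over this longer list the density was 4.94 per 10 kb, against 2.24 over the arms, 2.21-fold higher. The weak peaks outside the IDR list numbered 33 at InR and 0 at Tor.

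Summits in the set had a lower GC content than their surroundings. GC within 50 bp of the summit had a median of 29.7% (range 12.9 to 54.5%), against 39.4% in windows 500 bp to either side, and was lower at the summit in 62 of 74 (83.8%). All IDR peaks had 28.7% at the summit, 43.1% beside it, and a lower summit in 88.3%. The lowest values, 12.9% and 16.8%, were at an intronic foxo peak of 414 and at a peak of 300 upstream of Lk6. All 12 Myc peaks had lower GC than their surroundings, with medians of 30.2% and 36.1%, as had all 5 at Thor and all 4 at S6k, while at Mnt 14 of 19 did. The highest values were 54.5% at an intronic foxo peak of 219 and 51.5% at InR peaks of 335 and 255. The median longest A and T run was 10 bases, against 11 over all IDR summits and 7 in the windows beside them. How base composition bears on which peaks were called was not tested.

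**Figure D4:**
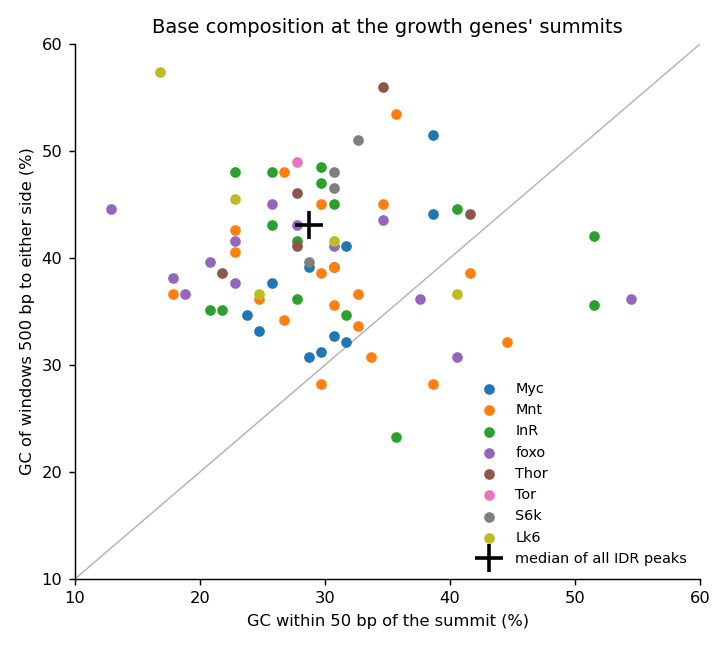
GC content within 50 bp of each growth gene summit (horizontal, %) against the mean of windows 500 bp to either side (vertical, %). Points above the diagonal, 62 of 74, have a lower GC content at the summit, and the black cross marks the medians over all IDR peaks (28.7% and 43.1%).

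The letters searched for the CP2 and Grainyhead family were not found in these summit windows. Within 50 bp of the summits and on both strands, AACCGGTT, AACCNGTT, ACCGGT and a pair of CTGG half-sites with a gap of 6 bases were each in 0 of 74 windows. They were rare in the whole IDR list too, at 0.244% of 11045 windows for AACCGGTT, 1.26% for AACCNGTT, 0.507% for ACCGGT and 0.163% for the CTGG pair. In windows 500 bp to either side of all IDR summits the shares were 0.167% for AACCGGTT, 1.31% for AACCNGTT, 0.697% for ACCGGT and 0.340% for the CTGG pair, so only the first was more frequent at summits than beside them. The forms AACCGGTT, AACCNGTT and ACCGGT overlap in sequence. The E-box CACGTG, bound by Myc, Max and Mnt, was in 0 of 74, against 0.380% of all IDR summits and 1.32% of the windows beside them. The forkhead core GTAAACA was in 2 of 74 (2.70%), the Lk6 peak of 10316 and the Thor promoter peak, against 3.36% of all summits. It was in 6 of the 148 windows beside the 74 summits (4.054%), and these few hits do not order the shares. Over the whole list it was in 3.36% of summit windows and 2.12% of the windows beside them. GATA letters AGATAAG were in 2 (2.70%), the strongest Myc peak and an Mnt peak of 645, against 1.64% of all summits and 1.35% of the windows beside the 74. CACACACA was in 2 (2.70%), against 0.661% of all summits and 4.73% beside the 74, and GAGAGAG in 1 (1.35%), against 0.507% and 6.76%. Beside all IDR summits the shares were 1.22% for AGATAAG, 3.83% for CACACACA and 2.50% for GAGAGAG. TATCGATA, GGTCACAC and CAGGTAG were in none of the 74, and were rare at all IDR summits too, at 0.634%, 0.317% and 0.335%. Such letters describe the windows and are not a measure of binding by these factors.

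Other genes of the pathways, listed by role, were also examined at their promoters. Of 55 genes, 24 had an IDR peak within 500 bp of their own TSS (43.6%, exact 95% interval 30.3 to 57.7), where 24.6% of protein-coding genes had one. The number was 30 in the strongest peaks of replicate 4 alone and 23 in those of replicate 1 alone, for which no share of all protein-coding genes is given. No test was made of the list, which was chosen with earlier results of these data known.

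The roles hold 6 to 11 genes each, their exact 95% intervals overlap, and differences between them were not tested. Of the adaptor, PI3K and Akt genes, 8 of 11 had one (interval 39.0 to 94.0%). They were led by sgg, the fly GSK-3 kinase, at 3887 (2776 in replicate 1 and 1119 in replicate 4), Pi3K21B, the regulatory subunit of PI3K, at 2469 (1872 in replicate 1 and 601 in replicate 4), and melt, a modulator of foxo and Tor, at 2175 (1529 in replicate 1 and 665 in replicate 4). Of the Myc network genes, 6 of 9 had one (29.9 to 92.5%), with pont, a chromatin helicase that binds Myc, at 4974 (3669 in replicate 1 and 1317 in replicate 4), bigmax at 1534 (1078 in replicate 1 and 461 in replicate 4) and Max at 1193 (847 in replicate 1 and 354 in replicate 4). Of the genes for TOR outputs and translation, 5 of 7 had one (29.0 to 96.3%), led by REPTOR, a transcription factor restrained by Tor, at 4081 (2829 in replicate 1 and 1260 in replicate 4).

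The counts were lower in the remaining roles. Of the TSC, Rheb and TOR complex genes, 3 of 11 had one (6.02 to 61.0%), among them Sesn (sestrin, an inhibitor of TORC1) at 5359, the highest promoter signal of the list, with 3768 in replicate 1 and 1602 in replicate 4. Of the ligands and secreted binding proteins, 2 of 11 had one (2.28 to 51.8%), Ilp7 at 410 and Sdr at 542, and the Ilp7 peak is the one counted above in the window of Mnt. Of 6 genes of nutrient input to TOR, 0 had one (0 to 45.9%), RagA-B, RagC-D, Nprl2 and mio among them, although all 6 had an IDR peak in the gene or within 10 kb.

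**Figure D5:**
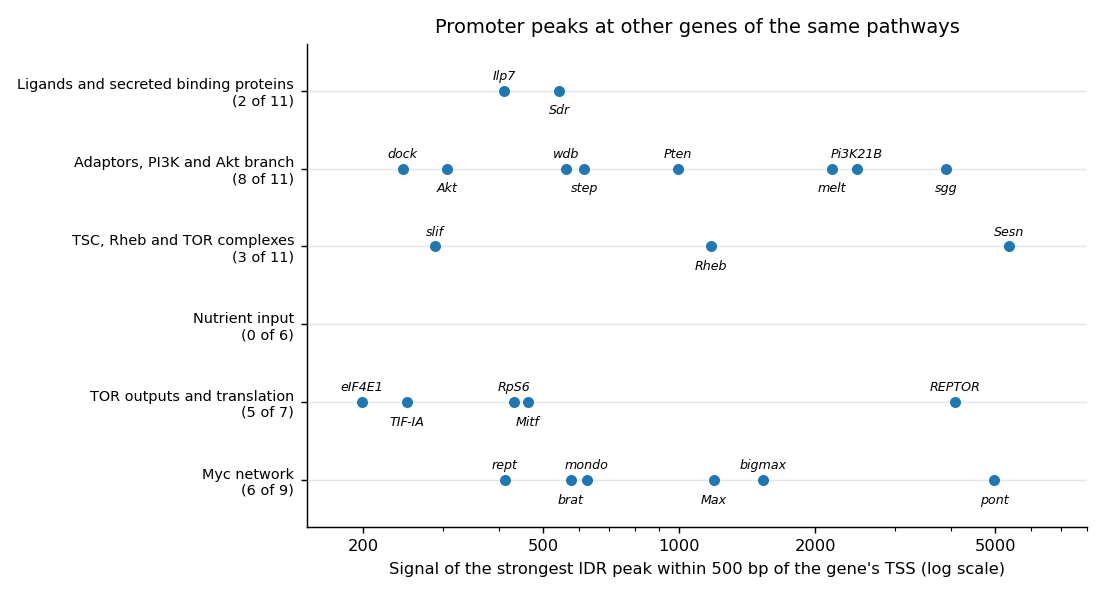
Promoter peaks at other genes of the insulin, TOR and Myc pathways, by role. Each point is a gene with an IDR peak within 500 bp of its TSS, placed at the signal of its strongest such peak (log scale), and the axis labels give how many genes of each role had one. Sesn (5359), pont (4974) and REPTOR (4081) lie farthest to the right.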

How the data were processed

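Per the labels, chromatin from 0 to 24 h embryos was sonicated to 200 to 800 bp, and GFP-tagged gem was precipitated. The authors deposited 4 peak lists on dm6: 1 for each replicate, 1 for both replicates pooled and 1 of IDR-thresholded peaks, each called with a control alignment per the deposited listing. The signal in these deposited lists is the value the authors gave each peak. Its scaling is unstated, so peaks were ranked by it only inside their own list. The aligner, peak caller and IDR threshold are not given in the sources used here, and read depth is unknown. The IDR list holds exactly the strongest 11045 pooled peaks, and the other lists hold 30000 each.

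Summits were assigned to genes of Ensembl release 115 (BDGP 6.54) within 10 kb, with Tor matched to mTor. Promoter peaks lay within 500 bp of a TSS, replicate matches within 100 bp, and motifs within 50 bp of the summit on both strands. Sequence came from the RefSeq release 6 genome. Python 3.11.15, pandas 2.3.3 and scipy 1.17.1 were used, and assignment, matching and motif search were tested on simulated data. With 1 group and no control group, no test was run. Exact (Clopper-Pearson) 95% intervals cover counting error only.

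The strongest peak of each gene, each peak in the top 10% and each promoter peak were described individually. For other pathway genes, those with the 8 highest promoter signals were named, with 4 where none was found. Of the pathway symbols, Lobe matched no single gene and Mlx repeated bigmax, so both were left out. Other peaks named along with these were picked after their values were seen. The genes and lists were chosen with earlier results of these data known. Alternatives covered the window, promoter distance, match distance, peak list and leaving out each replicate.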

Additional observations from a re-analysis of the deposited data

How the results depend on the processing

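Of 50 alternative values for 7 results, 36 lay within the tolerance, 10 moved beyond it and 4 turned round. The tolerance was 1.5-fold for a count and, for the other values, the 95% interval of the share or density or the spread between replicates of the median ratio. The count of 74 peaks became 49 within 1000 bp of the genes, 38 in the stronger part of the IDR list, 173 in the pooled list and 42 when only peaks nearest to a TSS of the gene were kept. The density became 1.09 per 10 kb in the stronger part of the list and 4.94 in the pooled list, as fewer or more peaks were counted. The median signal relative to all peaks of the list, 1.04 in the report, was 0.954 within 5000 bp, 0.924 within 1000 bp, 0.946 in the stronger part, 0.915 for peaks nearest to the gene's own TSS and 1.18 in the pooled list, and the cause was not tested. The share found in both replicates was 92.1% in the stronger part of the list and 93.2% against all listed peaks.

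With 1 replicate left out, the count ran from 71 to 73, the density from 2.03 to 2.09 per 10 kb, the median ratio from 1.03 to 1.08, the promoter share from 22.5% to 23.3% and the pathway genes with a promoter peak from 23 to 30. The median ratio of 1.08, without replicate 4, was among the values that moved beyond the tolerance. The number of growth genes with a promoter peak was 6 with either replicate left out, but 4 in the stronger part of the list and 8 in the pooled list. From replicate 4 alone the 6 cannot include Tor, which had 0 listed peaks there, so they were not the 6 genes named above. Pathway genes with a promoter peak numbered 16 in the stronger part and 33 in the pooled list. The share of all protein-coding genes with a promoter peak is given for the IDR list only. Counts from the other lists therefore have no background beside them. The promoter share was 14.9% within 250 bp of a TSS and 31.1% within 1000 bp. No paired analysis was possible because there is only 1 group. Read depth is unknown, which limits what a missing entry shows.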
